A study of Nannospalax ehrenbergi and Mus musculus with 25 samples.

Results

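The 10 genes described here make, break down or receive prostaglandins: Ptgs1, Ptgs2, Ptges, Ptgis, Ptgds, Hpgd, Ptger1, Ptger2, Ptger3 and Ptger4. They were chosen by name, with earlier results of these same libraries in view, so their tests are no independent evidence; all 10 were found among the 27988 genes of the Spalax table and among the 47593 genes of the mouse table. The libraries were RNA-seq of neck muscle or of the lesion that had replaced it, from 18 animals: 12 field-caught blind mole rats (Spalax, those treated estimated at 2 to over 10 years old, ages not tied to single animals) and 6 male C57BL/6 mice of 3 to 4 months. The treated animals had received 1 subcutaneous injection of the carcinogen 3-methylcholanthrene (3MCA), 1 mg in Spalax and 200 µg in mice, in the left neck flank. IS denotes the injected side and UIS the opposite, uninjected side of the same animal.

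Of the Spalax, 4 were untreated controls, all female. Another 4 were tolerant, with no lesion 18 months (animals 2251 and 2261, males) or 30 months (2218, male, and 2375, female) after injection, and gave a library of the injected side. A granuloma was diagnosed in 2 females (600 after 14 months, 976 after 16 months) and a fibrosarcoma in 2 animals (2240, female, after 18 months, and 2230, male, after 30 months), each of which gave a UIS and an IS library. Of the mice, 3 were untreated (M1, M2 and M5) and 3 carried a fibrosarcoma (1019 after 14 weeks, 1023 after 12 weeks and 512 after 11 weeks), again with a UIS and an IS library each. Control and tolerant libraries carried dual indexes and all libraries of lesion-bearing animals a single index. The untreated Spalax were biopsied and recovered whereas lesion-bearing animals and control mice were killed, so that index, and in Spalax also sampling, cannot be told apart from lesion-bearing status.

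Prostaglandins are lipid signals made where they act. A phospholipase frees arachidonic acid from membranes, a cyclooxygenase (Ptgs1, present in many resting tissues, or Ptgs2, induced by injury, cytokines and growth factors) turns it into prostaglandin H2, and a terminal synthase makes the final product. Ptges makes prostaglandin E2, Ptgis prostacyclin and Ptgds prostaglandin D2; Hpgd oxidises prostaglandin E2 to an inactive form, and Ptger1 to Ptger4 encode its receptors EP1 to EP4. Prostaglandin E2 is known for its part in inflammation, pain, tissue repair and many tumors.

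The message of Ptgs2 is known to be short-lived because of AU-rich elements behind its stop codon. The stretch printed here was picked as the 30 bases with the most copies of the pentamer ATTTA in the first 300 of the mouse Ptgs2 3′ UTR. It lies in the last exon (GRCm38, GENCODE annotation, chr1:150105794-150105823, plus strand, bases 12 to 41 after the stop codon). Its capitals mark the 4 copies, which share letters where they touch.
Ptgs2: ccatATTTATTTATTTAtgtgaagaATTTA
On the transcript strand, and counting overlapping copies, the first 300 bases of this 3′ UTR held 7 copies of ATTTA. At least 7 copies were found in the same window of 0.0388% of the 15457 mouse genes with a 3′ UTR of that length. Hpgd and Ptger2 held 1 copy each, and at least 1 copy was found in 33.7% of those genes, and Ptgs1, Ptges, Ptger1, Ptger3 and Ptger4 held none; the 3′ UTRs of Ptgis and Ptgds were shorter than the window. Over its whole length, the 3′ UTR held 14 copies in 2445 bases for Ptgs2, 6 in 1825 for Ptger2 and 5 in 1233 for Ptger4. It held 4 in 838 for Hpgd, 1 in 878 for Ptger3 and none for the other members. How far Ptgs2 stands apart thus depends on the window. A match describes these letters only.

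Values are normalised counts, that is reads per gene divided by a size factor of the library, and a value of 10 rested on 7.03 to 16.7 reads in Spalax and 6.95 to 19.3 reads in mice. Changes are differences of mean log2(value + 1) with their standard error (SE), tested with limma over all genes that passed a minimum value, and called where the p-value, adjusted by Benjamini and Hochberg's method, did not exceed 0.05. The lesions differed from muscle in make-up: the summed level of muscle fibre markers (7 of 8 in the Spalax table) was 155 to 3030 in the 4 Spalax lesions against 756332 to 2533030 in the 4 UIS libraries of lesion-bearing Spalax. Macrophage markers (7 of 8 listed) summed to 9172 to 32825 in lesions against 1182 to 4220, neutrophil markers (5 of 5) to 1214 to 7298 against 194 to 2903, and fibroblast markers (6 of 6) to 58708 to 1495455 against 12999 to 35793. None of these markers was at 0 in every library of a lesion group. In bulk tissue, more cells of a type and more RNA per cell cannot be told apart, and the part of cell make-up in the results that follow was not tested.

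**Figure D1:**
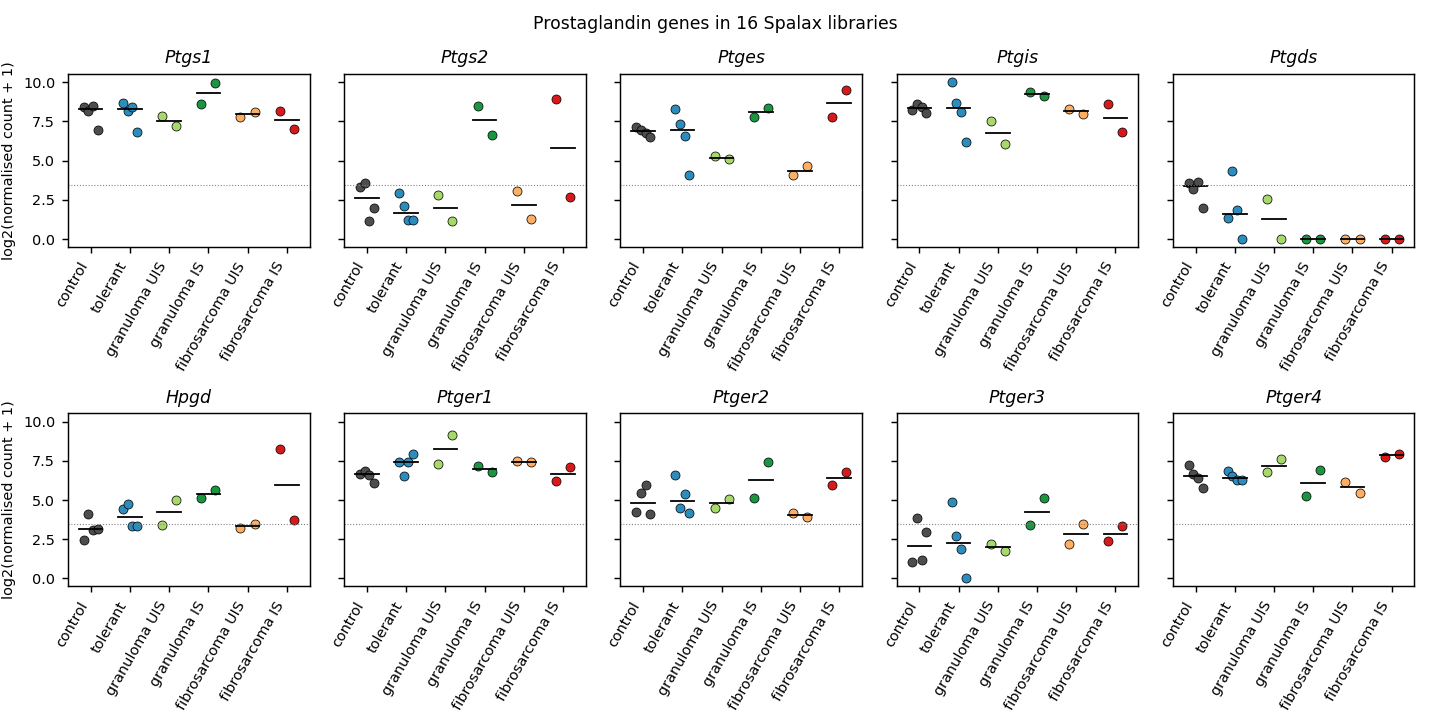
Normalised counts (log2 of the value + 1, vertical axis) of the 10 genes in 16 Spalax libraries by group; each point is a library, the bar the group median and the dotted line a value of 10. Ptgs2 lay between 1.18 and 10.8 in all 12 muscle libraries and above 100 in 3 of the 4 lesions, while Ptges was above every control in all 4 lesions.

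Among the cyclooxygenases, Ptgs2 was near the limit of detection in Spalax muscle. It was 8.83, 10.8, 1.25 and 2.98 in controls, 1.32 to 6.76 in tolerant animals, and 6.03 (animal 600), 1.18 (976), 7.27 (2240) and 1.42 (2230) on the uninjected side. In the granulomas it reached 358 (600) and 100 (976), and in the fibrosarcomas 478 (2240) but 5.40 (2230). Both granulomas and 1 of 2 fibrosarcomas were thus far above all muscle, and the other fibrosarcoma, with 9 reads, lay within the range of muscle. Ptgs2 rose in granuloma by 5.61 ± 1.03 (log2, SE, n = 2 and 2; limma adjusted p = 0.021). That change rests on 6 reads over both UIS libraries, and its size was 4.75 with a pseudocount of 4 and 5.99 with 0.25. In fibrosarcoma Ptgs2 reached the minimum in 1 library and was not tested. The neutrophil marker sum was 7298 and 5532 in the granulomas, 5906 in the fibrosarcoma with Ptgs2 at 478 and 1214 in the one with 5.40; the macrophage sum was 10063, 31611, 9172 and 32825 in the same lesions. Smooth muscle markers (4 of 4) had the same order over these lesions as the neutrophil sum, at 9724, 1777, 5842 and 946. Outside the lesions, the UIS library of 600 had a neutrophil sum of 2903 with Ptgs2 at 6.03. The UIS library of mouse 1023 had 14896 with Ptgs2 at 8.25. The part of any cell type in Ptgs2 was not tested.

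Ptgs1 was well above the minimum in every Spalax library. Controls had 341, 289, 361 and 120, and the UIS libraries 232 (600), 146 (976), 224 (2240) and 277 (2230). The granulomas had 399 and 968, both above every UIS library, whereas the fibrosarcomas, with 292 (2240) and 129 (2230), lay on either side of theirs. The granuloma difference was 1.75 ± 0.58 (adjusted p = 0.083) and the fibrosarcoma difference -0.36 ± 0.51 (limma adjusted p = 0.61); neither passed. With scaling by total reads the granuloma difference passed (2.49, adjusted p = 0.036), as it did in DESeq2 (adjusted p = 0.024), and the fibrosarcoma difference turned to 0.44.

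Of the terminal synthases, Ptges, the inducible microsomal prostaglandin E synthase, rose in both kinds of Spalax lesion. UIS libraries had 38.6 (600), 33.0 (976), 15.8 (2240) and 24.2 (2230). The lesions had 218 and 332 in granuloma and 221 and 740 in fibrosarcoma, 5.66, 10.1, 14.0 and 30.6 times the UIS value of the same animal. All 4 lesions were above all 4 UIS libraries and above all 4 controls (90.5 to 142). Separation from UIS, also seen for Ptgs1 in granuloma, was common. IS and UIS libraries did not overlap for 10289 of 14735 genes in granuloma and 10915 of 14696 in fibrosarcoma. The change was 2.88 ± 0.57 in granuloma (adjusted p = 0.025) and 4.30 ± 0.72 in fibrosarcoma (limma adjusted p = 0.016). The granuloma call was lost in each of the 4 fits without 1 library (limma adjusted p = 0.053 to 0.199), and the fibrosarcoma call in 2 of 4.

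Ptgis, the prostacyclin synthase, best known from vessel walls, rose in granuloma. Its UIS values were 181 (600) and 66.0 (976), and its granuloma values 672 and 554, a change of 2.47 ± 0.61 (limma adjusted p = 0.041). This call sat near the threshold: edgeR gave an adjusted p of 0.057 and limma without the minimum 0.059. In fibrosarcoma the UIS values of 313 (2240) and 252 (2230) lay between the lesion values of 386 and 112, with a difference of -0.43 ± 0.67 (limma adjusted p = 0.65). With total-read scaling that difference was 0.37, and without the IS library of 2240 it passed at -1.32 (adjusted p = 0.021), so no direction is given.

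Ptgds, which makes prostaglandin D2, was at 0 in all 4 Spalax lesions, where 3 reads, the limit that a count of 0 allows, stand for 1.80 to 2.18. It was also at 0 in 3 of the 4 UIS libraries and 4.82 in the other, against 2.98 to 11.2 in controls, and reached no test in Spalax. Hpgd, the main enzyme of prostaglandin breakdown, was low in Spalax muscle, with 4.42 to 16.2 in controls and 9.65 (600), 31.8 (976), 8.49 (2240) and 9.95 (2230) on the uninjected side. It was 34.8 and 48.3 in the granulomas, and 301 (2240) and 12.0 (2230) in the fibrosarcomas. The same fibrosarcoma, of 2240, thus had the highest Ptgs2 and the highest Hpgd of the 16 libraries. Neither difference passed (granuloma 1.17 ± 0.86, adjusted p = 0.35; fibrosarcoma 2.62 ± 1.58, limma adjusted p = 0.25), and the fibrosarcoma difference rested on 2240: without the IS library of 2240 it was 0.35 (limma adjusted p = 0.594), without that of 2230 it was 4.89 (limma adjusted p = 0.00245), and DESeq2 called it with both (adjusted p = 0.0085).

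The receptors Ptger2 (EP2) and Ptger4 (EP4), which both raise cyclic AMP, rose in Spalax fibrosarcoma. Ptger4 had 71.5 (2240) and 42.6 (2230) on the uninjected side and 213 and 246 in the fibrosarcomas, a change of 2.03 ± 0.45 (limma adjusted p = 0.029). Those 2 lesions were the highest of the 16 libraries for Ptger4. In granuloma it went the other way in both animals, from 107 to 37.0 (600) and from 192 to 118 (976), a difference of -1.10 ± 0.78 that did not pass (limma adjusted p = 0.34). Controls had 54.7 to 151, so that the granuloma of 600 lay below them and that of 976 within their range.

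Ptger2 had 17.0 (2240) and 14.2 (2230) on the uninjected side and 62.1 and 109 in the fibrosarcomas, a change of 2.33 ± 0.53 (adjusted p = 0.032; with the animal as a block, limma adjusted p = 0.054, and without the minimum 0.052, so the call is lost in both). In granuloma it was 21.7 and 33.0 in UIS and 33.4 (600) and 170 (976) in IS, so that nearly all of the difference of 1.46 ± 0.97 (limma adjusted p = 0.3) came from animal 976. Ptger3 (EP3), which lowers cyclic AMP, was at 1.10 to 13.5 in controls and at 4.30 to 33.8 in lesions, too low for a test in either lesion.

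Ptger1 (EP1), a calcium-coupled receptor, was lower in the lesion in all 4 Spalax, without passing the test. It was 158 (600), 564 (976), 176 (2240) and 173 (2230) on the uninjected side and 140, 109, 73.2 and 139 in the lesions, with differences of -1.26 ± 0.73 in granuloma (adjusted p = 0.25) and -0.79 ± 0.47 in fibrosarcoma (limma adjusted p = 0.25). Total-read scaling brought the fibrosarcoma difference to 0.013, and without the IS library of 2230 it passed (-1.24, limma adjusted p = 0.032). Whether counting used the strand was not stated in the sources used here, so for any member reads from the opposite strand may be among those counted. By the mouse gene models this limit bears most, of the 10 members, on Ptger1. No Spalax gene models were used, so its weight in Spalax is not known.

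In all, 3 of the 8 members tested in granuloma were called (Ptgs2, Ptges and Ptgis) and 3 of the 7 tested in fibrosarcoma (Ptges, Ptger2 and Ptger4), all higher on the injected side; Ptgds and Ptger3 in both lesions, and Ptgs2 in fibrosarcoma, were under the minimum. The background was large: 24.3% of 14735 genes were called in granuloma, 11.7% as higher, and 36.3% of 14696 in fibrosarcoma, 17.4% as higher. IS and UIS libraries did not overlap for 7 of 8 members in granuloma, beside 10289 of 14735 genes. In fibrosarcoma they did not overlap for 5 of 7 members, beside 10915 of 14696 genes. The median change of the tested members was 1.61 in granuloma and 2.03 in fibrosarcoma, against -0.013 and 0.033 over all genes tested. Either side could meet the minimum. Ptgs2 in granuloma (UIS 6.03 and 1.18) and Hpgd in fibrosarcoma (UIS 8.49 and 9.95) met it only in the lesions. Such a member could enter only as higher, and Ptgs2 is among those called in granuloma. These medians are therefore not read as a result about the members. With 2 animals per group, single libraries decided the counts. Without the IS library of 600, the IS library of 976 or the UIS library of 976, 0 members were called in granuloma, beside 1.52%, 0.665% and 8.08% of all genes. Without the UIS library of 600 it was 2 (Ptgs2 and Ptgis), beside 19.6%. In fibrosarcoma 0 were called without the UIS library of 2240 or that of 2230, 5 without the IS library of 2230 and 4 without the IS library of 2240, beside 0%, 0%, 56.4% and 57.1% of all genes, so that the members' counts went with those of the whole table. In each such fit the lone sample is assumed to vary like the pair it is compared with.

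**Figure D2:**
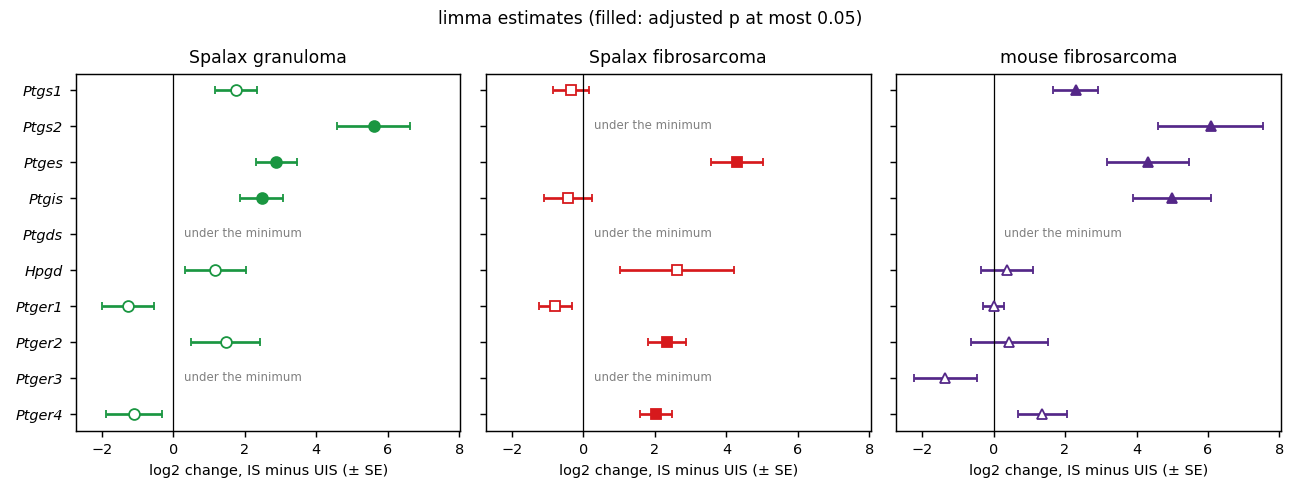
Change from UIS to IS (log2, horizontal axis, ± SE) of each gene in Spalax granuloma (n = 2 and 2), Spalax fibrosarcoma (n = 2 and 2) and mouse fibrosarcoma (n = 3 and 3); filled symbols have a limma adjusted p of at most 0.05. Ptges is filled in all 3 comparisons, Ptgs2 in granuloma and mouse fibrosarcoma, and Ptger2 and Ptger4 in Spalax fibrosarcoma.

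In mouse fibrosarcoma both cyclooxygenases and both of the synthases Ptges and Ptgis rose. Ptgs2 was 25.3, 28.1 and 25.5 in untreated muscle, 50.8 (1019), 8.25 (1023) and 0 (512) on the uninjected side, and 391, 1521 and 247 in the tumors. The tumors lay above all muscle libraries, with a change of 6.08 ± 1.47 (limma adjusted p = 0.017) whose size depends on the pseudocount (5.26 with 4, 6.79 with 0.25) because 1 UIS library had no read. Ptgs1 went from 135 (1019), 109 (1023) and 194 (512) to 542, 1844 and 346, a change of 2.29 ± 0.64 (limma adjusted p = 0.027).

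Ptges went from 250 (1019), 45.4 (1023) and 21.6 (512) to 1219, 4370 and 399, a change of 4.33 ± 1.14 (limma adjusted p = 0.023). Ptgis went from 189 (1019), 13.4 (1023) and 10.1 (512) to 753, 1603 and 783, a change of 4.98 ± 1.09 (limma adjusted p = 0.013). Tumor 1023 was the highest of the 3 for all 4 genes, and its UIS library also stood apart in neutrophil markers (5 of 5 listed), which summed to 14896 against 314 and 357 in the other UIS libraries. Muscle fibre markers (8 of 8) summed to 108 (1019), 16683 (1023) and 52352 (512) in the tumors and to 1730793 to 4325959 on the uninjected side, macrophage markers (8 of 8) to 8008 to 31074 against 393 to 5295.

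The other members did not pass in mouse tumors. Ptger4 was higher in all 3, going from 176 (1019), 180 (1023) and 56.2 (512) to 639, 323 and 151, a difference of 1.37 ± 0.69 (adjusted p = 0.15). With the animal as a block it passed (limma adjusted p = 0.037), and so it did with total-read scaling (adjusted p = 0.033). Ptger3 was 64.1 (1019), 107 (1023) and 11.5 (512) on the uninjected side and 28.4, 10.1 and 15.3 in the tumors (-1.35 ± 0.89, adjusted p = 0.25; without the UIS library of 512 -2.27, limma adjusted p = 0.03). Ptger2 went from 27.8, 47.4 and 4.32 to 60.5, 35.0 and 7.37 (0.44 ± 1.08, limma adjusted p = 0.76). Hpgd went from 55.6, 54.7 and 20.2 to 123, 23.7 and 46.3 (0.37 ± 0.74, limma adjusted p = 0.7). Ptger1 was 406, 310 and 299 against 423, 286 and 313 (limma adjusted p = 0.998). Ptgds was at 0 in tumors 1019 and 1023 and at 15.3 in tumor 512, below the minimum.

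Thus 4 of 9 members tested were called in mouse tumors, all higher, against 45.1% of 15220 genes called, 22.8% as higher. IS and UIS libraries did not overlap for 4 of 9 members, beside 9169 of 15220 genes. The median change of the members was 1.37 against 0.11 over all genes. Ptgs2 met the minimum in every tumor but on the uninjected side only in 1019 (50.8, against 8.25 and 0). This median is therefore not read as a result about the members either. The number called was 2 without the IS library of 1019, the UIS library of 1023 or the IS library of 1023, beside 31.5%, 30.4% and 27.8% of all genes. Ptgis was called in all 6 such fits, Ptgs2 in 5, Ptgs1 in 3 and Ptges in 2, with adjusted p of Ptges between 0.012 and 0.07. Scaling by total reads raised the median change of all genes in each lesion, to 0.72 in granuloma, 0.83 in Spalax fibrosarcoma and 1.16 in mouse fibrosarcoma. It moved the split of calls from 1718 higher and 1863 lower to 3370 and 1126 in granuloma, from 2550 and 2789 to 5169 and 1661 in Spalax fibrosarcoma, and from 3469 and 3401 to 7555 and 1675 in mice. All the members called above stayed called and higher under it.

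**Figure D3:**
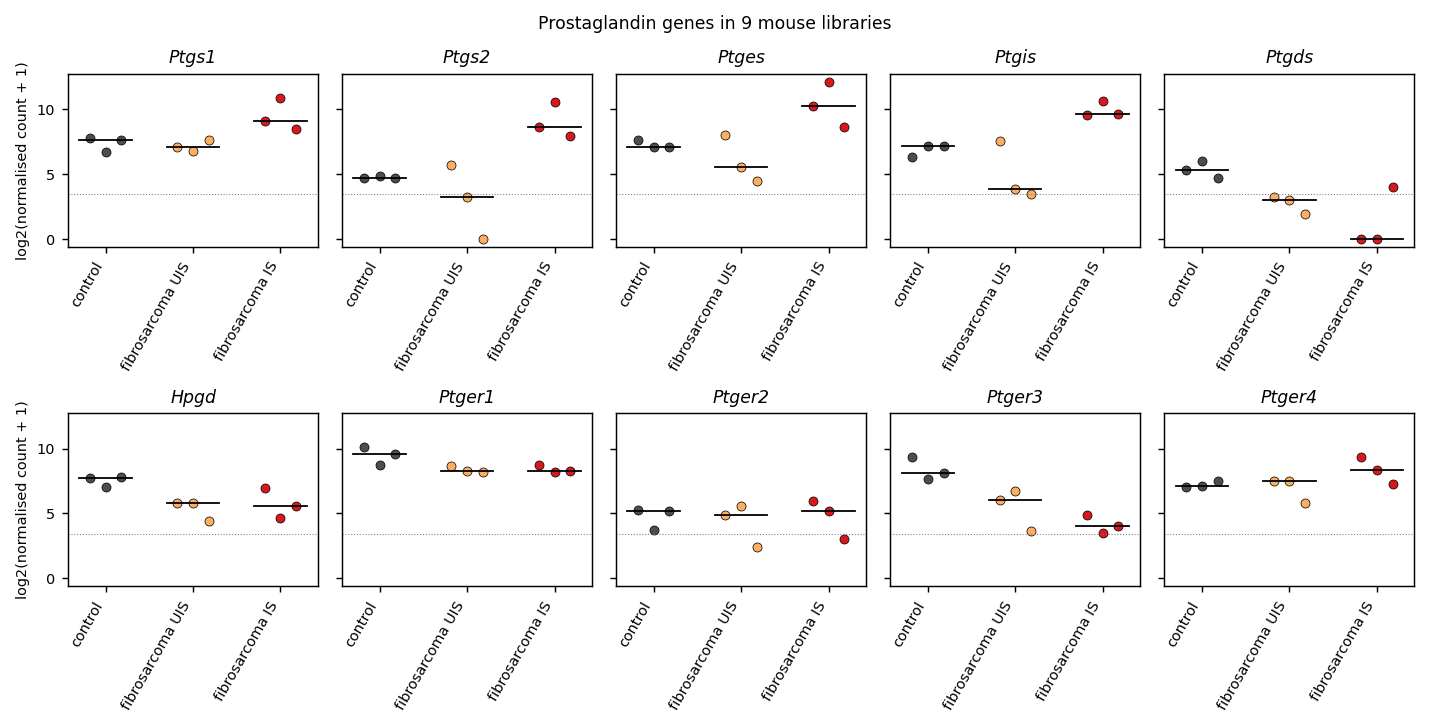
Normalised counts (log2 of the value + 1, vertical axis) of the 10 genes in 9 mouse libraries by group; each point is a library, the bar the group median and the dotted line a value of 10. Ptgs1, Ptgs2, Ptges and Ptgis are higher in all 3 tumors than in any muscle library, and Ptgds, Hpgd, Ptger1 and Ptger3 are lower in all 3 UIS libraries than in any control. Among all genes tested, tumor and UIS libraries did not overlap for 9169 of 15220. Control and UIS libraries did not overlap for 21.2% of 14792.

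**Figure D4:**
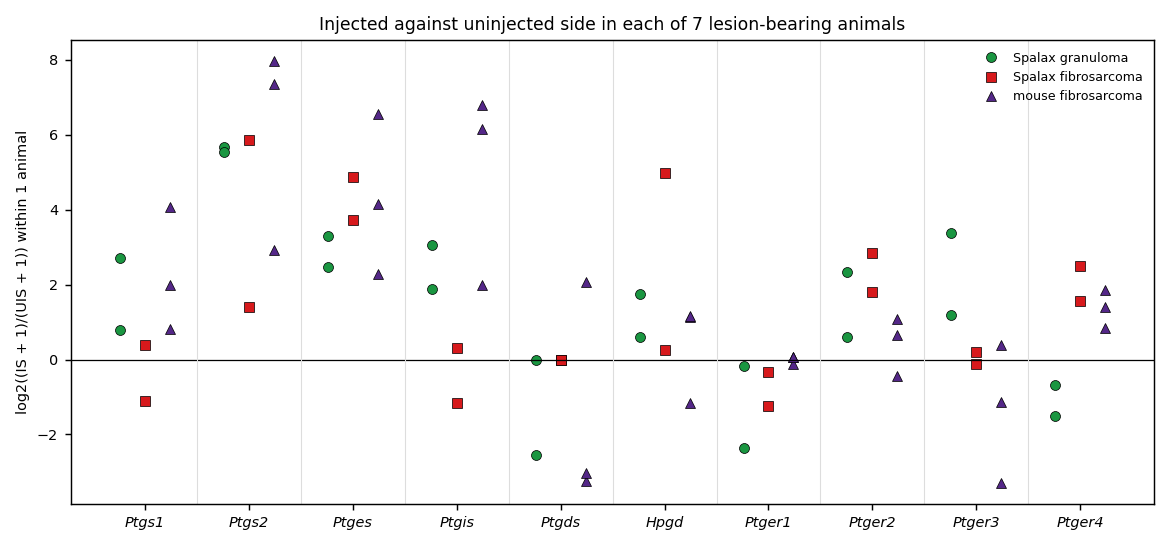
Difference between the injected and the uninjected side of the same animal, as log2((IS + 1)/(UIS + 1)) on the vertical axis, for each gene; each symbol is 1 of the 7 lesion-bearing animals. Ptgs2 and Ptges are above 0 in 7 of 7 animals, and Ptger4 is below 0 in both granulomas and above 0 in all 5 fibrosarcomas. The share of all genes with 1 direction in all 7 animals was not computed.

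Within animals, 2 genes moved the same way in all 7: Ptgs2 and Ptges were higher on the injected side in 7 of 7. For Ptges the ratio of IS to UIS was lowest in mouse 1019 (4.87) and highest in mouse 1023 (96.3). For Ptgs2 the log2 difference was smallest in Spalax 2230 (1.40, from 1 to 9 reads) and mouse 1019 (2.92), and between 5.54 and 7.96 in the other 5 animals. Ptgis was higher in 6 of 7 and Ptgs1 in 6 of 7, Spalax 2230 being the exception both times. Hpgd and Ptger2 were also higher in 6 of 7, with mouse 1023 as the exception. A shared direction was common among all genes tested. The sides did not overlap for 10289 of 14735 genes in granuloma, 10915 of 14696 in Spalax fibrosarcoma and 9169 of 15220 in mouse tumors. The share of all genes with 1 direction in all 7 animals was not computed. These counts are therefore not read as a result about the members.

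The difference between lesions was itself tested. Between Spalax fibrosarcoma and granuloma, 0 of 8 members tested differed by limma and 0 by edgeR or DESeq2; 3 of 8 had an unadjusted p under 0.05, beside 5.11% of 15173 genes with such a p, 0% called by limma and 0.554% by DESeq2. Ptger4, with opposite directions, had a difference of 3.13 ± 0.95 (fibrosarcoma change minus granuloma change, limma adjusted p = 0.92). Between Spalax and mouse fibrosarcoma, over genes with a shared symbol, 0 of 7 members tested were called by limma or edgeR and 1 by DESeq2; 2 of 7 had an unadjusted p under 0.05. Among all 11085 genes 3.95% were called by limma, 15.4% by DESeq2, and 21.6% had an unadjusted p under 0.05. For Ptgis the Spalax change minus the mouse change was -5.41 ± 1.59 (log2), which missed the threshold (limma adjusted p = 0.094) and passed without the UIS library of mouse 1019 (-6.71, limma adjusted p = 0.015). For Ptgs1 it was -2.65 ± 0.95 (limma adjusted p = 0.15), and DESeq2 called it (adjusted p = 0.032).

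Between untreated Spalax and the uninjected side of lesion-bearing Spalax, which asks how far muscle differs away from the lesion, Ptges stood apart. Controls had 142, 125, 110 and 90.5, and the 4 UIS libraries 38.6, 33.0, 15.8 and 24.2, so that the groups did not overlap. The difference was -2.08 ± 0.35 (n = 4 and 4), with a limma adjusted p of 0.16 and a DESeq2 adjusted p of 2.2e-05. Ptges is also on a list of genes that the study selected on these samples for this comparison, so its difference is no independent evidence. Ptger1 was 66.6 to 115 in controls and 158 to 564 in UIS, also without overlap (1.29 ± 0.42, limma adjusted p = 0.22, DESeq2 adjusted p = 0.037). Ptgis was 265 to 390 in controls and 66.0 to 313 in UIS (-0.87 ± 0.44, limma adjusted p = 0.34).

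Of 6 members tested here, 0 were called by limma or edgeR and 2 by DESeq2, with 2 at an unadjusted p under 0.05 and 2 without overlap. Of all 13909 genes, 0% were called by limma and 3.71% by DESeq2, 16.6% had an unadjusted p under 0.05 and 12.7% did not overlap. Smooth muscle markers (4 of 4) summed to 6970 to 11968 in controls and 2866 to 4549 in UIS, and endothelial markers (6 of 6) to 11032 to 14743 and 9043 to 10789, likewise without overlap. Neutrophil markers (5 of 5) went the other way, 67.4 to 178 in controls and 194 to 2903 in UIS. The part of these cell types in the differences was not tested. Ordered by group median, Ptges in Spalax was lowest in fibrosarcoma UIS (15.8 to 24.2), then granuloma UIS (33.0 to 38.6), control (90.5 to 142), tolerant (16.1 to 311), granuloma IS (218 to 332) and fibrosarcoma IS (221 to 740). Tolerant overlapped all other groups and both lesions overlapped each other.

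Ptges and Ptgis varied more among tolerant animals (SD 125.5 and 418.5, n = 4) than among controls (22.1 and 53.1) or UIS libraries (10.0 and 106.0), whereas Ptger4 varied least there (18.4 against 40.4 and 64.7). Ptges was 311 (2251), 164 (2261), 92.6 (2218) and 16.1 (2375), and Ptgis 1039, 405, 268 and 71.0 in the same order, so that the tolerant group spanned both controls and UIS. Animals 2251 and 2261 were sampled after 18 months and 2218 and 2375 after 30 months, and 2375 was the only female. Time after injection and sex cannot be told apart from this order. Animal 2251 also had the highest fibroblast sum (158308 against 6758 to 38548 in the other tolerant animals) and macrophage sum (19596 against 1106 to 5372), and a low muscle fibre sum of 863002; 2375 had the lowest fibroblast and macrophage sums. Against controls, 0 of 6 members tested were called by limma, edgeR or DESeq2 and 1 had an unadjusted p under 0.05, beside 0% (limma), 0.428% (DESeq2) and 5.23% (unadjusted) of 14020 genes. Against the uninjected side of lesion-bearing animals, the counts were 0, 0, 0 and 0 of 6, beside 0.00713% (limma), 0.271% (DESeq2) and 5.12% (unadjusted) of 14029 genes.

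In mice the same comparison of untreated muscle with the uninjected side showed 4 members with lower values in every UIS library. Hpgd was 217, 132 and 225 in controls and 55.6, 54.7 and 20.2 in UIS (-2.21 ± 0.49, adjusted p = 0.33). Ptger3 was 636, 200 and 270 in controls and 64.1, 107 and 11.5 in UIS (-2.87 ± 0.83, limma adjusted p = 0.41). Ptgds was 38.3, 62.3 and 25.5 in controls and 8.47, 7.22 and 2.88 in UIS (-2.59 ± 0.58, limma adjusted p = 0.33). DESeq2 called Hpgd, Ptger3 and Ptgds (adjusted p = 0.0027, 0.025 and 0.011). Ptger1 did not overlap either, at 419 to 1115 in controls against 299 to 406. Ptges and Ptgis did not separate in mice: Ptges was 131 to 200 in controls and 21.6 to 250 in UIS, and Ptgis 77.4 to 143 and 10.1 to 189 (-1.91 ± 1.03, limma adjusted p = 0.5).

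Of the 10 members tested in that comparison 0 were called by limma or edgeR and 3 by DESeq2, 4 had an unadjusted p under 0.05 and 4 did not overlap. Of all 14792 genes 0% were called by limma and 2.31% by DESeq2, 11.0% had an unadjusted p under 0.05 and 21.2% did not overlap. Fat markers (5 of 5), of a tissue known for Ptger3, summed to 86872 to 130809 in control mice and 7057 to 75734 in UIS, also without overlap. Schwann and myelin markers (5 of 5) were likewise lower, at 3219 to 7286 against 1930 to 3089, and neutrophil markers (5 of 5) higher, at 49.7 to 69.3 against 314 to 14896. The part of these cell types in the differences was not tested. The comparisons of UIS with controls and with IS share the UIS libraries.

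Calls among the other genes of the pathway were in both directions in granuloma and mouse tumors and lower only in Spalax fibrosarcoma. Of 24 further prostanoid genes, 23 were in the Spalax table; 2 of 19 tested rose and 3 fell in granuloma, 0 rose and 4 fell in Spalax fibrosarcoma, and 4 of 20 tested rose and 6 fell in mouse tumors, with list medians of -0.05, 0.12 and 0.65 against -0.013, 0.033 and 0.11 over all genes. The shares of all genes called were 24.3%, 36.3% and 45.1%, so that these counts are not read as a result about the list. With total-read scaling these counts became 2 higher and 2 lower in granuloma, 5 and 2 in Spalax fibrosarcoma, and 9 and 2 in mouse tumors, where Pla2g6 turned from -0.96 to 0.10. Pla2g4a, the cytosolic phospholipase that frees arachidonic acid, rose in granuloma from 42.2 and 31.8 to 224 and 301 (2.79, limma adjusted p = 0.026) and in mouse tumors from 8.64 to 68.9 up to 284 to 727 (4.32, limma adjusted p = 0.0074). In Spalax fibrosarcoma its 145 and 445 against 90.9 and 64.0 did not pass (1.72, limma adjusted p = 0.11). Ptges2, a second prostaglandin E synthase gene, changed opposite to Ptges, by -2.76 in granuloma, -3.46 in Spalax fibrosarcoma and -2.20 in mouse tumors on the log2 scale (limma adjusted p = 0.024, 0.019 and 0.0062). With total-read scaling it stayed lower in each, but the mouse call was lost (-1.13, limma adjusted p = 0.066). Ptges3, the cytosolic form that is also the p23 co-chaperone, did not pass in any (limma adjusted p = 0.42, 0.34 and 0.84). Hpgds, the haematopoietic prostaglandin D synthase, rose in mouse tumors (3.73, limma adjusted p = 0.025), where Ptgds was at 0 in 2 of 3.

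Of 9 genes of the neighbouring leukotriene branch, 1 of 6 tested rose in granuloma, 2 of 7 in Spalax fibrosarcoma, and 1 rose and 1 fell of 8 in mouse tumors, with medians of 1.88, 2.07 and 1.11 against the same -0.013, 0.033 and 0.11 over all genes. Of all genes 11.7%, 17.4% and 22.8% were called higher, so that these counts too are near the background. The medians are not read as a result either, since Cysltr2 met the minimum in granuloma only in the lesions. Total-read scaling gave 3, 4 and 4 higher and 0 lower, so that the call of lower Alox12 in mouse tumors was lost. Alox5ap, the partner of 5-lipoxygenase, rose in Spalax fibrosarcoma from 211 and 156 to 649 and 1574 (2.47, limma adjusted p = 0.026), as did Lta4h, which makes leukotriene B4 (2.07, limma adjusted p = 0.021). Cysltr2, a receptor for cysteinyl leukotrienes, was at 0 in both UIS libraries of granuloma animals and at 37.0 and 143 in the granulomas, where it was called (limma adjusted p = 0.015), and was called in mouse tumors too (limma adjusted p = 0.0086).

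As a description over the 12 Spalax muscle libraries, with no test, the genes with the most similar rank order were named for each member at 10 or more in at least 6 of them. Ptgis followed Cd248, a marker of stromal cells, and S100a6 (Spearman rho 0.986 each over 12 libraries), and Ptgs1 followed Emp3 (0.965). Ptges followed Msc (0.937), Ptger1 followed Nsmf (0.965), Ptger2 followed Prr7 (0.937) and Ptger4 followed Adamts16 (0.923). The highest among 13920 genes is bound to be high, and these libraries, all of neck muscle, mix dual and single indexes and untreated, tolerant and lesion-bearing animals. Among the members, Ptges correlated with Ptgs1 (0.769) and Ptgis (0.734) and negatively with Ptger1 (-0.615).

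Levels can be compared between genes only per length, which the mouse annotation allows. Per kilobase of exon, the median normalised count in untreated mouse muscle was 140 for Ptger1 (76.7 to 204), which was not ranked because of the limit on strand given above. Among the other members it was highest for Hpgd (129), followed by Ptgis (54.8), Ptgs1 (49.7), Ptger3 (47.4), Ptges (34.0), Ptgds (23.2), Ptger4 (20.3), Ptger2 (6.69) and Ptgs2 (5.57). Ranges of Ptgis, Ptgs1, Ptger3 and Ptges overlapped. That of Hpgd (78.2 to 134) overlapped that of Ptger3 (35.1 to 112). That of Ptgds (15.5 to 37.8) overlapped those of Ptges (33.4 to 50.8) and Ptger4 (19.9 to 26.9), and Ptger2 and Ptgs2 overlapped as well. In mouse tumors the order was Ptges (310), Ptgis (305), Ptgs1 (139), Ptgs2 (85.3), Ptger4 (48.6), Hpgd (27.5), Ptger2 (6.74), Ptger3 (2.68) and Ptgds (0). Ptges and Ptgis overlapped at 101 to 1112 and 293 to 625 per kilobase, and the breakdown enzyme Hpgd, at 14.1 to 72.8, was below both in every tumor. Neighbours in this order overlapped in range, except Hpgd and Ptger2.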

How the data were processed

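Processed tables of 25 libraries (16 Spalax, 9 mouse) were used. Per the study's methods the authors trimmed single-end reads of stranded TruSeq libraries, aligned them and counted reads per gene with HTSeq; the processing notes name TopHat 1.4.1, HTSeq, DESeq and GRCm38. The deposited values are a normalised signal, that is whole counts divided by a size factor of each library. Commas in 2387 Spalax gene names were read as t; 2308 of the restored names are in the mouse table. In every library 100% of values came out as whole reads within 0.1 read, and totals were 17025447 to 23386729 reads in Spalax and 22143060 to 31179183 in mice. Each species was tested within its own table, except in the comparison of Spalax with mouse fibrosarcoma. That comparison joined both tables over shared symbols in 1 model, and edgeR and DESeq2 scaled the joined reads together.

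Genes that reached a value of 10 in enough libraries to fill the smaller of both groups were tested with limma 3.58.1 (R 4.3.3) on log2(value + 1), with p-values adjusted over all genes tested (Benjamini-Hochberg, threshold 0.05). Alternatives were pseudocounts of 0.25 and 4, no minimum, scaling by total reads, 1 model over all libraries of a species, leaving out each library, the animal as a block, and edgeR 4.0.16 and DESeq2 1.42.0 on the recovered reads. UIS and IS libraries of 1 animal are paired by the animal's number in the labels; the label of 1 granuloma UIS library (976) also shows another number (979). Deviations of both sides of an animal correlated weakly (r = 0.009 in granuloma, -0.002 in Spalax fibrosarcoma, 0.047 to 0.18 in mice). Each animal is 1 replicate. Limits from a count of 0 cover counting error only. Annotation was GENCODE on GRCm38; overlap of the members with other genes is not reported here. The members and gene lists were chosen with earlier results of these data known; all 10 members, and called genes of the other pathway lists, could be named. The authors' own gene list was not used as a measurement.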

Additional observations from a re-analysis of the deposited data

Results flagged for a closer look

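In groups of 4 Spalax libraries, 30 sets of values of the 10 genes were checked for 1 library far from the other 3. The measure was the gap to its nearest neighbour over the range, and 5 were found. Chance flags about 1 in 20 only where values are independent and not tied. Here the sets share libraries, the uninjected group joins animals with either lesion, and some values rest on few reads or are tied at 0. The 5 flags are therefore not read as an excess over chance. On the uninjected side of lesion-bearing animals, Ptger1 was 564 in animal 976 against 158 to 176 in the others, and Hpgd was 31.8 in the same animal against 8.49 to 9.95. That library also had the lowest muscle fibre marker sum of the 4, 756332. Also on the uninjected side, Ptger3 was 9.95 in animal 2230 against 2.36 to 3.64, and Ptgds was 4.82 in animal 600 against 0 in the others. In tolerant muscle, Ptgds was 19.7 in animal 2261 against 0 to 2.65.

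Ptger4 had opposite directions by lesion in every animal. Its mean log2 change from UIS to IS was -1.10 in the granulomas, 2.03 in Spalax fibrosarcomas and 1.37 in mouse fibrosarcomas, a difference of 3.13 between both Spalax lesions and of 2.47 between granuloma and mouse fibrosarcoma. The first difference was tested as an interaction and did not pass (limma adjusted p = 0.92, DESeq2 adjusted p = 0.2), and the second was not tested.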

How the results depend on the processing

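Pseudocounts of 0.25 and 4 changed no call or direction of the named members. DESeq2 called 2 members between Spalax controls and UIS, 3 between mouse controls and UIS, and 1 between Spalax and mouse fibrosarcoma, where limma called 0. It left the adjusted p of Ptgis in mice undefined. Leaving out 1 library at a time gave 0 to 2 members called in granuloma, 0 to 5 in Spalax fibrosarcoma, 2 to 4 in mouse tumors and 0 to 1 between species. The animal as a block ended the call of Ptger2 in Spalax fibrosarcoma, added Ptger4 in mouse tumors and changed no other member's call. Over all genes, calls between species then fell from 438 to 38. With 1 model over all libraries of a species, 1 member call was lost and 1 was added, and 30 member results kept theirs. Total-read scaling turned the uncalled Spalax fibrosarcoma differences of Ptgs1 to 0.44, Ptgis to 0.37 and Ptger1 to 0.013, and called Ptger1 and Ptger4 in mouse tumors. Mouse tumor Ptger1 was -0.029 in edgeR and -0.052 in DESeq2. Over single libraries left out, differences that changed sign ranged from -0.95 to 0.23 (Ptgs1) and -1.32 to 0.46 (Ptgis) in Spalax fibrosarcoma, and in mouse tumors from -0.25 to 0.91 (Hpgd), -0.17 to 0.14 (Ptger1) and -0.50 to 1.27 (Ptger2). The cause was not tested, except that fits without a library hold fewer samples. Depth limits Ptgs2, Ptgds, Ptger3 and Hpgd in Spalax muscle, where a value of 10 rests on 7.03 to 13.3 reads.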
